A study of Parachlorella kessleri with 6 samples.

Results

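The cytochrome P450 genes described here are those of Parachlorella kessleri, a single-celled green alga of the Chlorella group, measured by RNA-seq in 3 control libraries and 3 libraries of salt-stressed cells after 2 days. Members were all assembled genes with a Pfam domain named p450, apart from those whose Swiss-Prot description names carotene or sterol. This gave 23 of the 22972 assembled genes. Of the 25 genes with the domain, the 2 left out both carry the name carotene epsilon-monooxygenase. An obtusifoliol demethylase gene stayed in, since its description holds neither word. No strain, genotype or salt concentration is given in the sources used here, and the labels do not tell whether replicates came from separate cultures. The p-values therefore cover the spread between these samples alone, which may be technical.

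Cytochrome P450s are heme-thiolate enzymes that split molecular oxygen and place one of its atoms in a substrate, with electrons that usually come from NADPH through a flavin reductase or a fused reductase domain. In plants and green algae they act in sterol, carotenoid and fatty acid metabolism and in hormone synthesis and detoxification. In CYP names a number marks the family and the letter after it the subfamily, and names given here are those of the best match in other organisms, which do not establish what the algal enzyme does. Of the 23 members, 21 have a green alga as best match in the NR protein database, and 10 of these matches are in Chlorella variabilis. The other 2 match cocoa.

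Library totals ran from 16460455 to 24065705 counts, so that 1 count was worth 0.0436 to 0.0629 CPM (counts scaled for library size, with edgeR's TMM factors). Control replicate 1 stood apart from the other controls. Computed across genes, which do not count as replicates, the correlation of log2 CPM (Pearson's r) was 0.965 and 0.969 between it and these, 0.995 between control replicates 2 and 3, 0.983 to 0.991 among the salt libraries and 0.839 to 0.858 between conditions. Values without this library, or from replicates 2 and 3 alone, are given beside the results that it moves.

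Single P450 genes differed between control and salt by up to 103-fold, while the summed level of all of them overlapped between the groups. Of 21 members with enough counts to test, 5 were higher in salt, 6 were lower and 10 did not pass the test (edgeR's quasi-likelihood test, Benjamini-Hochberg adjusted p under 0.05). The 11 called members are 52.4% of those tested, against 57.8% of all 11438 tested genes. The lowest adjusted p, 1.5e-05, belonged to TRINITY_DN5170_c0_g2, which fell from 220 to 9.59 CPM. The largest rise was in its cluster neighbour TRINITY_DN5170_c0_g4, from 1.30 to 26.4 CPM. A member named after obtusifoliol demethylase, an enzyme of sterol synthesis, rose from 154 to 365 CPM.

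As a list the P450 genes changed about as often as other genes. Raised members made up 23.8% of those tested, against 29.1% of all tested genes, and lowered members 28.6%, against 28.7%. A called change of at least 2-fold was found in 3 raised and 4 lowered members, or 14.3% and 19.0%, against 15.9% and 17.7% of all tested genes. The groups did not overlap for 12 members (57.1%, against 66.7%). The median log2 fold change was -0.11 over the members and 0.01 over all tested genes, and the median size of the change was 0.46 and 0.70. In the authors' deposited table, which covers the same libraries, the same 7 members, 3 up and 4 down, are marked as significant. Of all 22972 genes, with those of too few counts to test included, 4300 (18.7%) are so marked. A log2 fold change of at least 1 either way with FDR under 0.05 gives the same mark for 22947 of them.

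**Figure D1:**
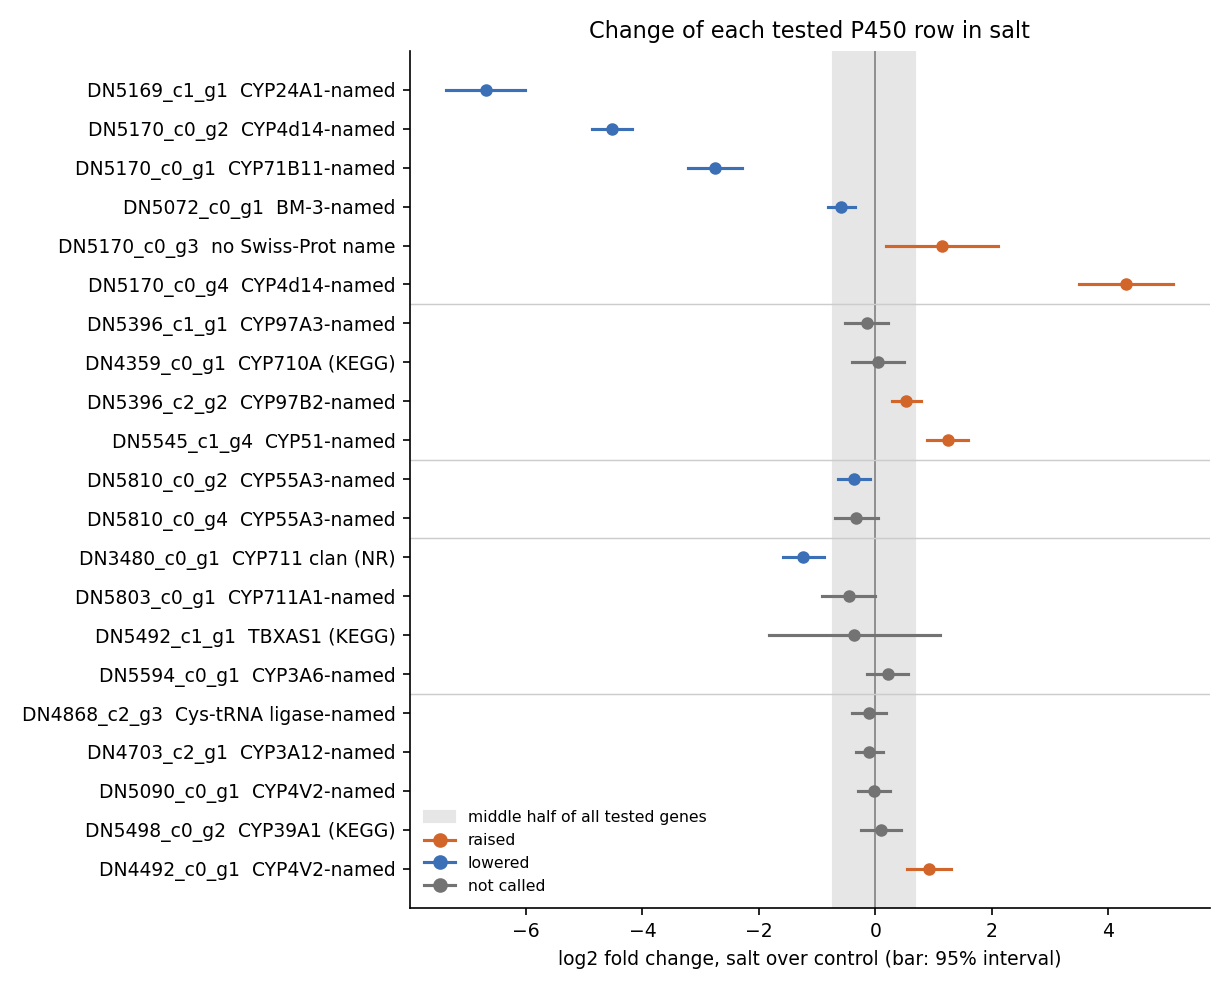
Log2 fold change of salt over control for the 21 tested P450 genes, with the 95% interval from the edgeR fit as a bar and the range between the quartiles of all 11438 tested genes shaded. Lines separate the FASN-labelled genes, the sterol and carotenoid genes, the CYP55 genes, the CYP711 and TBXAS1 genes and the others; values run from -6.69 to 4.31, and both ends lie among the FASN-labelled genes.

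The summed level of the 23 members was 2512 ± 56.5 CPM in control against 2363 ± 118 CPM in salt (mean ± SD, n = 3 each). Single libraries held 2576, 2469 and 2490 CPM in control against 2319, 2497 and 2274 CPM in salt, so the groups overlapped. As a share of all counts, without TMM factors, the members held 0.235% ± 0.0105 in control and 0.252% ± 0.0188 in salt, which is the opposite direction.

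Both the largest falls and the largest rise were in 6 members that the KEGG column labels FASN, the symbol of animal fatty acid synthase. No other gene of the table has this label. All 6 changed, 4 lower and 2 higher in salt, and 5 of them by at least 2-fold, where 57.8% and 33.5% of all tested genes did so. This group was singled out with the values known, so no test is given. It also holds the 4 P450 genes of Trinity cluster DN5170_c0, whose single levels are uncertain, so these are not 6 separate changes. One of the 6, TRINITY_DN5170_c0_g3, lost its call in some settings, given with its values. Of these 6, 4 share one best NR match, hypothetical protein COCSUDRAFT_58178 of the alga Coccomyxa subellipsoidea. Their Swiss-Prot names differ widely: a Drosophila CYP4d14 for TRINITY_DN5170_c0_g2 and TRINITY_DN5170_c0_g4, an Arabidopsis CYP71B11 for TRINITY_DN5170_c0_g1, and CYP24A1, which inactivates vitamin D in mammals, for TRINITY_DN5169_c1_g1. TRINITY_DN5170_c0_g3 has no Swiss-Prot name. The sixth, TRINITY_DN5072_c0_g1, is named for the bacterial enzyme P450 BM-3, a fatty acid hydroxylase with its reductase fused to it.

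TRINITY_DN5170_c0_g2 was the most abundant of these in control, at 227, 214 and 219 CPM in replicates 1 to 3, and had 8.53, 9.13 and 11.1 CPM in salt. Every salt library lay far below every control library, and the control libraries lay close together. The level fell 22.9-fold (edgeR log2 fold change -4.52, SE 0.14, adjusted p = 1.5e-05). Its p450 match covers 421 residues of its best reading frame, and further p450 segments lie in other reading frames.

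TRINITY_DN5169_c1_g1 had 74.4, 58.4 and 63.9 CPM in control against 0.636, 0.369 and 0.871 CPM in salt, where it was almost absent. These salt values rest on 14, 8 and 20 counts. It fell 103-fold (edgeR log2 fold change -6.69, SE 0.29, adjusted p = 1.9e-05), and this was the lowest value among the members. Its salt FPKM (fragments per kilobase scaled for library size, the authors' own unit) did not follow the counts, at 2.12, 0.152 and 0.671. The effective length behind them, computed from counts and FPKM, was 306, 2652 and 1414 bases, against 1427 to 1451 bases in control.

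TRINITY_DN5170_c0_g1 had 19.5, 24.1 and 26.0 CPM in control against 3.36, 3.04 and 3.92 CPM in salt. Again no salt library reached a control library, and the level fell 6.74-fold (edgeR log2 fold change -2.75, SE 0.20, adjusted p = 7.45e-05). TRINITY_DN5072_c0_g1, the BM-3-named gene, fell less, from 94.0 ± 5.16 to 62.8 ± 1.84 CPM (n = 3 each; edgeR log2 fold change -0.58, SE 0.10, adjusted p = 0.00231). Its p450 match, 476 residues, is the longest in a single reading frame among the members.

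TRINITY_DN5170_c0_g4 went the other way. Its level was 1.58, 1.70 and 0.629 CPM in control against 24.1, 25.3 and 29.8 CPM in salt, with every salt library above every control library. It rose 19.8-fold (edgeR log2 fold change 4.31, SE 0.34, adjusted p = 0.000103), the largest rise among the members. The control values rest on 33, 34 and 10 counts in replicates 1 to 3.

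TRINITY_DN5170_c0_g3 had 3.79, 11.4 and 10.6 CPM in control against 14.8, 21.3 and 20.9 CPM in salt, with control replicate 1 well below the other controls. It rose (edgeR log2 fold change 1.14, SE 0.40, adjusted p = 0.0451), and with replicates 2 and 3 alone the change was 0.95 (adjusted p = 0.0012). The call was lost without control replicate 3 or without any one salt library, with adjusted p between 0.0598 and 0.115, and it was kept without control replicate 1 (log2 fold change 0.79, adjusted p = 0.0143) or without control replicate 2. Its p450 match covers 104 residues, and its best NR match is described as a partial P450.

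**Figure D2:**
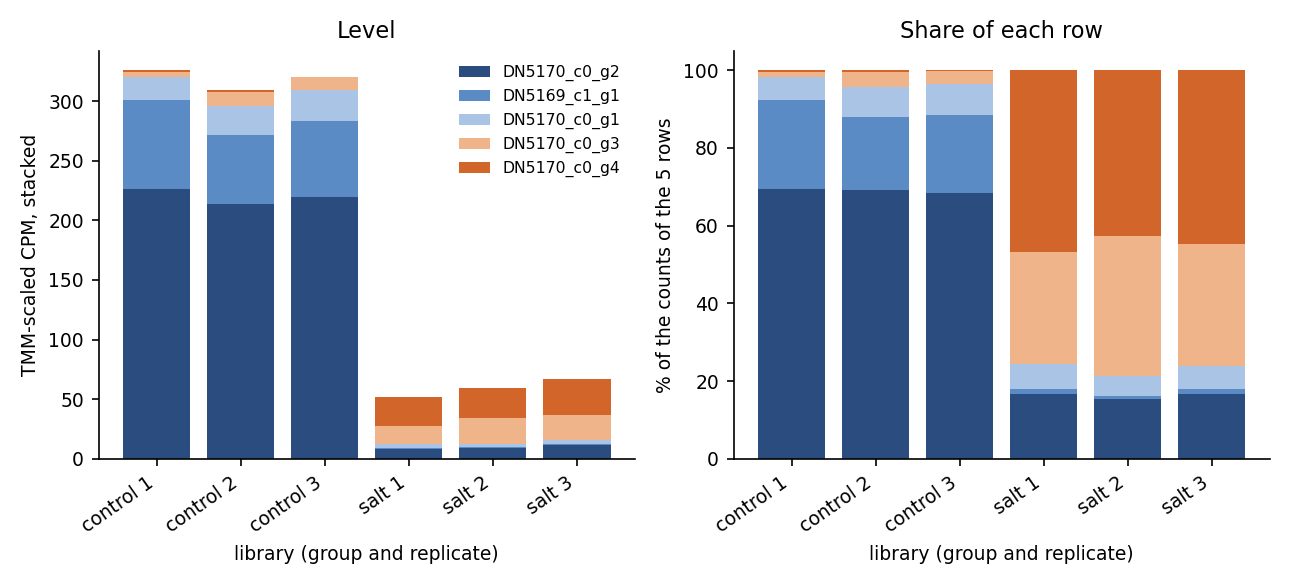
Left, TMM-scaled CPM per library of the 4 P450 genes of Trinity cluster DN5170_c0 and of DN5169_c1_g1, stacked; right, each gene's share of the counts of these 5 genes in that library. The stacks reach 309 to 326 CPM in control against 51.4 to 66.6 CPM in salt, and DN5170_c0_g2 holds the largest share in control and DN5170_c0_g4 in salt. Neither panel is scaled for gene length.

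Together, TRINITY_DN5169_c1_g1 and the 4 P450 genes of cluster DN5170_c0 summed to 319 ± 8.61 CPM in control and to 59.1 ± 7.63 CPM in salt (n = 3 each). The other 18 members together had 2193 ± 49.3 and 2304 ± 120 CPM. Within the 5 genes, TRINITY_DN5170_c0_g2 held 69.0% ± 0.564 of the counts in control and 16.2% ± 0.696 in salt. TRINITY_DN5170_c0_g4 held 0.41% ± 0.188 and 44.8% ± 2.06, and TRINITY_DN5170_c0_g3 held 2.72% ± 1.36 and 32.0% ± 3.69. TRINITY_DN5170_c0_g1 held 7.31% ± 1.16 and 5.85% ± 0.697, and TRINITY_DN5169_c1_g1 held 20.6% ± 2.03 and 1.06% ± 0.376. These shares are not scaled for length, and median effective lengths ran from 1362 bases (TRINITY_DN5170_c0_g3) to 4127 (TRINITY_DN5170_c0_g2). Per length, TRINITY_DN5170_c0_g2 and TRINITY_DN5169_c1_g1 had 50.8 and 42.5 FPKM in control. In salt, TRINITY_DN5170_c0_g3 and TRINITY_DN5170_c0_g4 had 14.3 and 14.1 FPKM, so their order by share does not hold per length.

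Genes of one Trinity cluster share sequence, and the sources used here do not say how reads were divided among the 4 P450 genes of DN5170_c0, so the level of each one alone is uncertain. Their sum went from 253 ± 3.19 to 58.4 ± 7.51 CPM (edgeR log2 fold change -2.11, SE 0.13, adjusted p = 4.17e-05; a sum chosen after the values were seen). This is opposite in sign to the values of TRINITY_DN5170_c0_g3 and TRINITY_DN5170_c0_g4. The cluster also holds TRINITY_DN5170_c0_g6, a gene with an acyltransferase domain and no p450 match, which rose from 0.912 ± 0.13 to 34.8 ± 17.0 CPM (edgeR log2 fold change 5.24, SE 0.44, adjusted p = 0.000129). With every gene of the cluster summed, the log2 fold change was -1.45 (SE 0.10, adjusted p = 7.7e-05).

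Of 4 genes named for sterol or carotenoid enzymes, 2 rose and 2 did not pass the test, where 29.1% of all tested genes rose. TRINITY_DN5498_c0_g2, labelled as an oxysterol hydroxylase, is not counted here and did not pass the test either. Nor did TRINITY_DN5498_c0_g1, a gene named obtusifoliol demethylase that is not a member (edgeR log2 fold change -0.13, adjusted p = 0.535). The obtusifoliol demethylase gene TRINITY_DN5545_c1_g4, of the CYP51 family that removes the 14-alpha methyl group of sterol precursors, had 182, 141 and 138 CPM in control against 356, 400 and 340 CPM in salt. All salt libraries were higher, and it rose 2.37-fold (edgeR log2 fold change 1.25, SE 0.15, adjusted p = 0.000493). With all 9 genes of its Trinity cluster summed, which carry unrelated descriptions such as a kinase, the value was 0.66 (adjusted p = 0.00278). TRINITY_DN4359_c0_g1, labelled CYP710A in KEGG, the sterol C-22 desaturase family of plants, had 356, 269 and 263 CPM in control against 347, 330 and 243 CPM in salt. These groups overlapped, and the log2 fold change was 0.05 with a 95% interval from -0.40 to 0.50.

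The CYP97 family hydroxylates the rings of carotenoids on the way to lutein in plants. TRINITY_DN5396_c2_g2, whose best NR match is CYP97B1 of P. kessleri itself, had 33.2, 33.4 and 36.4 CPM in control against 47.8, 50.5 and 50.6 CPM in salt. The groups did not overlap and replicates lay close together; it rose 1.45-fold (edgeR log2 fold change 0.53, SE 0.11, adjusted p = 0.00473). TRINITY_DN5396_c1_g1, matching CYP97A1 of P. kessleri and named after the Arabidopsis beta-ring hydroxylase LUTEIN DEFICIENT 5, had 137 ± 26.1 CPM in control against 124 ± 9.78 CPM in salt. It did not pass the test (log2 fold change -0.15, 95% interval -0.52 to 0.22). Its value was 0.0235 without control replicate 1 and -0.0366 with replicates 2 and 3 alone.

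The 2 genes left out of the members, both named after the epsilon-ring hydroxylase LUTEIN DEFICIENT 1 (CYP97C1), share a Trinity cluster with TRINITY_DN5396_c2_g2. TRINITY_DN5396_c2_g3 had 2.54, 1.10 and 2.08 CPM in control against 21.6, 23.7 and 25.2 CPM in salt (edgeR log2 fold change 3.62, SE 0.31, adjusted p = 0.000134). TRINITY_DN5396_c2_g1 went from 1.30 ± 0.575 to 16.8 ± 2.47 CPM (edgeR log2 fold change 3.67, SE 0.33, adjusted p = 0.000168). Both rose from low levels, with p450 matches of 295 and 140 residues. They also share their best NR match, hypothetical protein CHLNCDRAFT_51247 of Chlorella variabilis. Whether they are pieces of the same gene was not tested. Summed with them, the cluster of TRINITY_DN5396_c2_g2 changed by 1.25 (SE 0.09, adjusted p = 8.72e-05).

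CYP55 enzymes are known from fungi as nitric oxide reductases, which turn nitric oxide into nitrous oxide, and 2 members carry the name of a Fusarium CYP55A3. The best NR match of TRINITY_DN5810_c0_g2 is algal, a P450 of Chlamydomonas reinhardtii named nitric oxide reductase. TRINITY_DN5810_c0_g2 had 269, 267 and 274 CPM in control against 186, 229 and 212 CPM in salt. The salt libraries were all lower and it fell 1.29-fold (edgeR log2 fold change -0.37, SE 0.12, adjusted p = 0.0296). It did not pass with library totals in place of TMM (-0.18, adjusted p = 0.281), with no filter on low counts (adjusted p = 0.121) and without control replicate 2, control replicate 3, salt replicate 1 or salt replicate 3 (adjusted p 0.0764 to 0.0981). In the authors' deposited table its log2 fold change is -0.08. TRINITY_DN5810_c0_g4 had 170 ± 28.9 CPM in control against 136 ± 15.3 CPM in salt and did not pass the test (log2 fold change -0.32, 95% interval -0.69 to 0.04). With replicates 2 and 3 alone it did (-0.26, adjusted p = 0.0166). Their p450 matches cover only 99 and 73 residues and they share a cluster. All genes of that cluster summed gave -0.23 (adjusted p = 0.0505), which does not pass, and the P450 genes alone, a sum chosen after the values were seen, gave -0.35 (SE 0.11, adjusted p = 0.0322).

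Another 4 members are labelled TBXAS1 (CYP5A) in KEGG, the thromboxane synthase of mammals. One of them is named in Swiss-Prot after CYP711A1 (MORE AXILLARY BRANCHES 1), an Arabidopsis enzyme of strigolactone synthesis. Among them 1 fell and 3 did not pass the test, where 28.7% of all tested genes fell. TRINITY_DN3480_c0_g1 matches a P450 of the CYP711 clan of Chlamydomonas reinhardtii in NR, and its p450 domain match covers 406 residues. It had 78.2, 69.7 and 69.2 CPM in control against 36.2, 30.2 and 26.0 CPM in salt. Every salt library lay below every control library, and it fell 2.35-fold (edgeR log2 fold change -1.23, SE 0.15, adjusted p = 0.000547). TRINITY_DN5803_c0_g1, the CYP711A1-named gene, had 162, 198 and 199 CPM in control against 102, 166 and 138 CPM in salt. Its groups overlapped slightly and it missed the threshold (edgeR log2 fold change -0.46, SE 0.19, adjusted p = 0.0782), but passed with the replicate number as a block (-0.48, adjusted p = 0.0239), without control replicate 1 (-0.54, 0.0474), without salt replicate 2 (-0.62, 0.0386) and with replicates 2 and 3 alone (-0.37, 0.0246). All genes of its cluster summed gave -0.46 (adjusted p = 0.00942).

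TRINITY_DN5492_c1_g1 varied most between replicates, at 25.8, 150 and 144 CPM in control against 76.6, 52.1 and 120 CPM in salt. Control replicate 1 was the lowest of all libraries for this gene, and the direction differed between replicate numbers: salt over control was 1.55 on the log2 scale in replicate 1, -1.52 in replicate 2 and -0.26 in replicate 3. The fit gave -0.36 with a 95% interval from -1.83 to 1.10, -0.82 without control replicate 1 (adjusted p = 0.0601) and -0.77 with replicates 2 and 3 alone (adjusted p = 0.111). Hypothetical protein CHLNCDRAFT_135113 of Chlorella variabilis is the best NR match both of the CYP711A1-named TRINITY_DN5803_c0_g1 and of TRINITY_DN5594_c0_g1. TRINITY_DN5594_c0_g1, named after a CYP3A enzyme of the rabbit, had 62.9 ± 5.23 and 72.8 ± 11.8 CPM (edgeR log2 fold change 0.21, adjusted p = 0.254). With replicates 2 and 3 alone its value was 0.39 (adjusted p = 0.027).

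**Figure D3:**
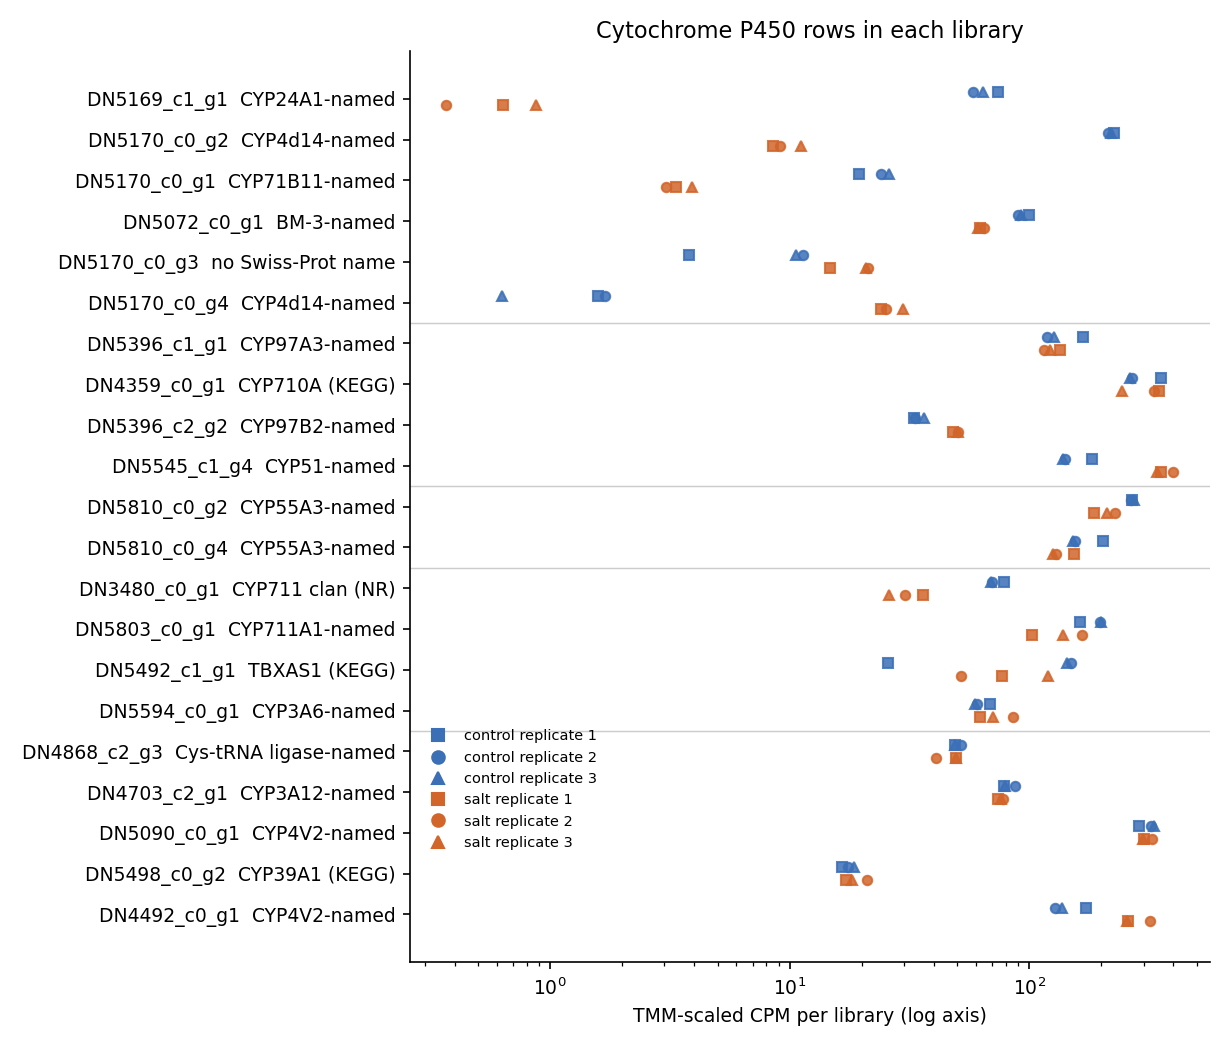
TMM-scaled CPM of the 21 tested P450 genes in each of the 6 libraries on a log axis, with control in blue, salt in orange and the replicate number as the symbol. Control replicate 1 (blue square) lies far below the other controls for DN5492_c1_g1 and DN5170_c0_g3, at 25.8 and 3.79 CPM.

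Both genes named CYP4V2, a fatty acid omega-hydroxylase of mammals, were abundant. Of them 1 rose and 1 did not pass the test, where 29.1% of all tested genes rose. TRINITY_DN4492_c0_g1 had 173, 128 and 137 CPM in control against 259, 318 and 255 CPM in salt, with every salt library higher. It rose 1.90-fold (edgeR log2 fold change 0.92, SE 0.16, adjusted p = 0.00249). With the other genes of its cluster added the value was 0.16 (adjusted p = 0.146); most of the added counts came from TRINITY_DN4492_c0_g2, which has no p450 match (349 ± 22.5 CPM in control, 279 ± 45.8 in salt). TRINITY_DN5090_c0_g1 had 313 ± 23.4 CPM in control against 309 ± 15.7 CPM in salt, with a log2 fold change of -0.02 and a 95% interval from -0.29 to 0.25. The difference between these genes' changes was not tested; their 95% intervals, 0.55 to 1.30 and -0.29 to 0.25, do not overlap.

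The remaining 3 tested members did not pass the test. TRINITY_DN5498_c0_g2, labelled CYP39A1 in KEGG, an oxysterol hydroxylase of mammals, had 17.5 ± 1.04 and 18.8 ± 2.06 CPM (95% interval of the log2 fold change -0.24 to 0.45). Its cluster neighbour TRINITY_DN5498_c0_g1 is a second gene named obtusifoliol demethylase but has no p450 domain listed, and had 21.1 ± 1.69 and 19.2 ± 3.31 CPM. TRINITY_DN4703_c2_g1, named after a CYP3A12, also carries the GCFC and NTR2 domains of a splicing-related protein in another reading frame, and had 81.6 ± 4.78 and 76.1 ± 1.92 CPM; its groups did not overlap, with salt lower (adjusted p = 0.415 by edgeR). TRINITY_DN4868_c2_g3 carries a cysteine-tRNA ligase in other reading frames and had 50.1 ± 1.76 and 46.6 ± 5.08 CPM (log2 fold change -0.11, adjusted p = 0.487 by edgeR). All genes of its cluster summed, RNA helicase-named genes among them, gave -0.48 (adjusted p = 0.00351). In TRINITY_DN4703_c2_g1 and TRINITY_DN4868_c2_g3, counts of the P450 and of the other protein cannot be told apart.

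The 2 members that were not tested, TRINITY_DN7054_c0_g1 and TRINITY_DN1058_c0_g1, are named after plant CYP82 enzymes and match cocoa. They held 3 and 2 counts in control replicate 1 and 3 and 3 counts in salt replicate 1, and 0 counts in the other 4 libraries, which allows up to 0.131 to 0.189 CPM there (counting error only). All counts of both genes thus lay in replicate 1 of the 2 groups, and the reason was not tested. No order by condition can be read at these counts.

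Levels of different members can be compared per length, on the authors' FPKM scale. In control the highest were TRINITY_DN5810_c0_g2 (119 FPKM), the CYP51-named TRINITY_DN5545_c1_g4 (118) and TRINITY_DN5810_c0_g4 (108). The ranges over 3 libraries of neighbours in this order overlapped for 14 of 20 pairs, so most neighbouring ranks are not separated. In salt TRINITY_DN5545_c1_g4 was first at 284 FPKM, and its lowest library, at 261 FPKM, lay above every library of the next gene, TRINITY_DN5810_c0_g2, at 112 FPKM on average and 125 at most. TRINITY_DN5170_c0_g2 went from rank 8 of 21 (50.8 FPKM) to rank 19 (2.31), and TRINITY_DN5170_c0_g4 from rank 21 (0.528) to rank 16 (14.1). The salt mean of TRINITY_DN5170_c0_g4 leans on salt replicate 1, at 19.5 FPKM against 10.3 and 12.5 in replicates 2 and 3. The effective length in that library was unlike the others, at 1261 bases, so its rank in salt is uncertain.

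**Figure D4:**
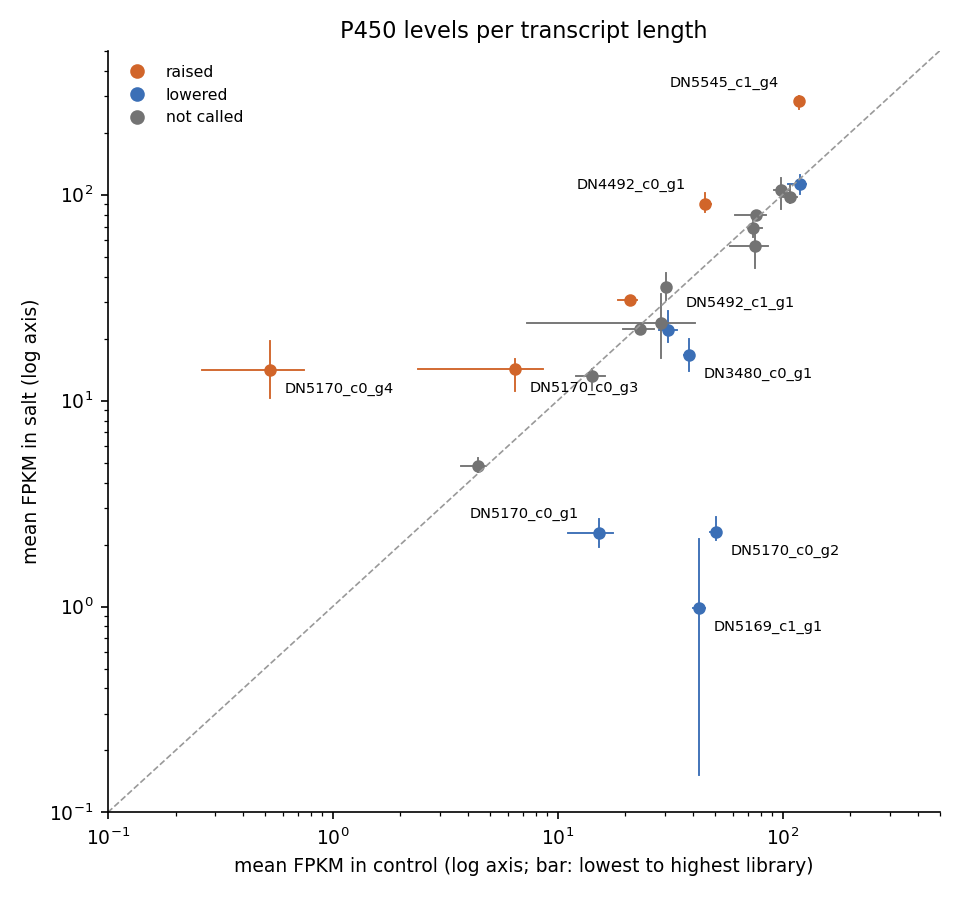
Mean FPKM in salt against mean FPKM in control for the 21 tested P450 genes, both on log axes, with bars from the lowest to the highest of the 3 libraries and the line of equal level dashed. DN5170_c0_g2, DN5170_c0_g1 and DN5169_c1_g1 lie far below the line, DN5170_c0_g4 far above it, and DN5545_c1_g4 is the highest in salt at 284 FPKM.

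P450 enzymes depend on redox partners, and a list of these by description held 3 genes, of which 1 rose, 1 fell and 1 did not pass the test, where 29.1% of all tested genes rose and 28.7% fell. Together with the 2 carotene epsilon-monooxygenases, which are P450s of the same Trinity cluster and not redox partners, 3 of 5 genes rose. TRINITY_DN5292_c1_g1 is named in Swiss-Prot after NADPH-cytochrome P450 reductase, the general electron donor of membrane-bound P450s, but KEGG labels it MTRR, methionine synthase reductase, a related flavoprotein, and it also has an LCM domain. It had 110, 84.1 and 75.3 CPM in control against 114, 108 and 119 CPM in salt. Control replicate 1 lay close to the salt libraries, and the gene did not pass (edgeR log2 fold change 0.34, SE 0.16, adjusted p = 0.104). Without control replicate 1 it did (0.52, adjusted p = 0.00383), as with replicates 2 and 3 alone (0.52, adjusted p = 0.00478) and with library totals in place of TMM (0.54, adjusted p = 0.0107).

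Both other partner genes are named after cytochrome b5 reductase 4, a flavoprotein fused to a b5-type heme domain, and they differed in sign. They share their best NR match, hypothetical protein CHLNCDRAFT_36685 of Chlorella variabilis. No flavin-binding domain is listed for either, and no domain at all for TRINITY_DN4403_c2_g3. TRINITY_DN4899_c2_g3, which has a b5 and a MOSC domain, rose from 113 ± 6.37 to 200 ± 36.3 CPM (n = 3 each; edgeR log2 fold change 0.82, SE 0.15, adjusted p = 0.00311). TRINITY_DN4403_c2_g3 had 713, 232 and 243 CPM in control against 142, 158 and 190 CPM in salt, with control replicate 1 far above all others. It fell (edgeR log2 fold change -1.28, SE 0.44, adjusted p = 0.0427). With the replicate number as a block the call was lost (-1.06, adjusted p = 0.0714), as it was with library totals (-1.04, adjusted p = 0.0577) and without any one salt library (adjusted p 0.0853 to 0.125). Without control replicate 1 the change was -0.53 (adjusted p = 0.0133), and with replicates 2 and 3 alone -0.44 (adjusted p = 0.0117).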

How the data were processed

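Total RNA of 3 control and 3 salt-stressed samples was isolated by the TRIzol method, per the labels' protocols. Read counts in the deposited table are whole numbers, one for each assembled gene and library. Beside them the authors give FPKM for each library, with group means, a log2 fold change, a p-value and an FDR of the authors' own comparison, per the file headers. No aligner, counting tool or test of the authors is named in the sources used here. Identifiers begin with TRINITY, and no sequences were used here.

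Counts were tested over all genes with edgeR 4.0.16 (limma 3.58.1, R 4.3.3), using TMM factors, filterByExpr with a minimum count of 10 and a quasi-likelihood fit on condition. A standard error is the absolute log2 fold change over the root of F, and 95% intervals use the fit's degrees of freedom. Effective length was computed as counts over FPKM and the library total. Differences within a replicate number used 0.5 CPM added. The fit was tested on simulated counts. Every tested member and partner is named, by rule. Members and lists were chosen with earlier results of these data known.

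Same-numbered libraries deviated together from their group means (r = 0.36, 0.15 and 0.24 across genes for replicates 1, 2 and 3). This meets the criterion of 0.1 set for pairing, though the labels give only the shared numbers. The main fit nonetheless had condition alone, without pairing. The replicate block was run as an alternative and changed the calls of TRINITY_DN5803_c0_g1 and TRINITY_DN4403_c2_g3. Replicates of a group differed by more than sampling noise (chi-square of 5.16 per gene or more). Alternatives were DESeq2 size factors, library totals, the DESeq2 1.42.0 Wald test, other filters, a 2-fold minimum, the replicate block, each library left out, replicates 2 and 3 alone, members of at least 300 bases and summed Trinity clusters. The sum over P450 genes of a cluster was added after the data were seen.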

Additional observations from a re-analysis of the deposited data

How the results depend on the processing

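Of 15 called genes (11 members, 2 cytochrome b5 reductases and the 2 carotene epsilon-monooxygenases), 12 were called in the same direction under all 13 alternatives of scaling, filter, test and libraries, and the exceptions are TRINITY_DN5170_c0_g3, TRINITY_DN5810_c0_g2 and TRINITY_DN4403_c2_g3. The counts of 5 raised and 6 lowered members went to 3 and 4 at a 2-fold minimum, to 4 to 5 and 5 to 7 with 1 library left out and to 6 and 8 with replicates 2 and 3 alone. The replicate block gave 5 raised and 7 lowered members. Calls over all tested genes moved too, from 3331 raised and 3285 lowered of 11438 to 4166 and 3863 of 11624 with replicates 2 and 3 alone. They were 1814 and 2020 at a 2-fold minimum and 3516 and 3330 with the block. With 1 library left out they ran from 2772 to 3875 raised and from 2678 to 3663 lowered. The list of redox partners and carotene epsilon-monooxygenases had 3 to 4 raised and 0 to 1 lowered with 1 library left out, and its 1 lowered gene became 0 with library totals alone and with the replicate block. Beyond TRINITY_DN5803_c0_g1 and TRINITY_DN4403_c2_g3 the block changed no other call. Library totals moved the median log2 fold change of all genes by 0.18 and the calls over all genes from 3331 raised and 3285 lowered to 4064 and 2658. Leaving cluster sums aside, signs turned 12 times, in 5 genes that were not called before or after (smallest adjusted p = 0.347). With library totals these were TRINITY_DN4703_c2_g1 (0.083), TRINITY_DN4868_c2_g3 (0.0754), TRINITY_DN5090_c0_g1 (0.16) and TRINITY_DN5396_c1_g1 (0.0451). With no filter it was TRINITY_DN5090_c0_g1 (0.0234). With 1 library left out, the values ran from -0.0724 to 0.0207 for TRINITY_DN5090_c0_g1, from -0.0394 to 0.212 for TRINITY_DN4359_c0_g1 and from -0.251 to 0.0235 for TRINITY_DN5396_c1_g1. Summing Trinity clusters turned the sign for TRINITY_DN5170_c0_g3 and TRINITY_DN5170_c0_g4 (-1.45 over all genes of the cluster, -2.11 over its P450 genes), TRINITY_DN5090_c0_g1 (0.0078) and TRINITY_DN5498_c0_g2 (-0.0366). Summing all genes of a cluster also ended the calls of TRINITY_DN4492_c0_g1 (adjusted p = 0.146) and TRINITY_DN5810_c0_g2 (0.0505) and gave calls for TRINITY_DN5803_c0_g1 (0.00942) and TRINITY_DN4868_c2_g3 (0.00351). The cause of these changes was not tested. At these depths a count of 0 allows 0.131 to 0.189 CPM.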

Other observations

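The members differ in how much of a P450 domain lies in a single reading frame. The match covers at least 400 residues of 1 reading frame in 9 members and under 200 residues in 10, and in 7 members it is spread over more than 1 reading frame. Only the reading frame with the most p450 residues was counted, so for those 7 members the figure may understate the domain they hold. Of the 9 tested members with at least 400 residues, 8 were called and 6 by at least 2-fold, where 57.8% and 33.5% of all tested genes were. Of the 12 tested members with fewer, 3 were called and 1 by at least 2-fold. The members with at least 400 residues include every FASN-labelled member except TRINITY_DN5170_c0_g3, so this count is not separate from the changes of that group. The line at 400 residues was drawn with the values known, so no test is given. The median effective length was 2343 bases for tested members and 1438 bases for all tested genes.

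The table holds 4 further genes with a cytochrome P450 name in Swiss-Prot and no p450 domain. Among them only TRINITY_DN5498_c0_g1 had enough counts to test, and the most any held over all 6 libraries was 2480 counts, the least 0.

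TRINITY_DN5170_c0_g4 had an effective length of 1261 bases in salt replicate 1, against 2696 and 2591 bases in salt replicates 2 and 3 and 2239 to 2377 bases in control. Its FPKM in salt replicate 1, 19.5, was accordingly above the 10.3 and 12.5 of replicates 2 and 3, while its CPM, 24.1, was the lowest of the 3.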
